A study of Mus musculus with 36 samples.

Results

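The nuclear receptors that sense lipids and foreign compounds were followed in the H3K9me3 landscape of mouse liver. The 10 genes were Ppara, Pparg and Ppard (PPARα, PPARγ and PPARδ), Nr1h3 (LXRα), Nr1h4 (FXR), Rxra (RXRα), Nr1i2 (PXR), Nr1i3 (CAR), Nr0b2 (SHP) and Nr5a2 (LRH-1), out of 22325 gene symbols in the authors' deposited tables. Every row with 1 of these gene symbols was taken. ChIPseeker gave each row the symbol of its nearest annotated start site, so a row can lie far from the gene or inside a neighbour. Each row is a bin of at most 501 bp within a peak. The receptors held 76 of 120683 bins in the age comparison of control females and 95 of 148133 in control males. In the diet comparisons they held 91 of 140214 bins (females, 3 weeks), 107 of 159357 (males, 3 weeks), 67 of 116257 (females, 8 weeks) and 61 of 102145 (males, 8 weeks).

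Liver H3K9me3 was profiled by ChIP-seq in 32 libraries, 4 per group, from female and male offspring at 3 or 8 weeks of age, with 4 input libraries. Dams ate a control diet or a Western-style diet before mating, in pregnancy and in lactation (maternal obesity, MO), and all offspring studied at 8 weeks had eaten chow since weaning at 3 weeks. The 8 groups combine diet, sex and age, and per the study's methods every mouse carried floxed Reg3g alleles (Reg3g-fl/+ or Reg3g-fl/fl) on a C57BL/6J background. The tables hold comparisons and no value per library, so a change is given with the authors' p-value and FDR (p-value adjusted by Benjamini-Hochberg) from edgeR's exact test over 4 against 4 libraries, and with an approximate 95% interval computed here from the change and its p-value.

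PPARα, PPARγ, PPARδ, LXRα, FXR, PXR and CAR are transcription factors switched by fatty acids, oxysterols, bile acids or drugs, and each binds DNA together with RXRα, their shared partner. SHP lacks a DNA-binding domain and is induced by FXR to repress bile acid synthesis, and LRH-1 drives the bile acid genes that SHP represses. In hepatocytes PPARα controls fatty acid oxidation in fasting, LXRα lipogenesis and cholesterol export, FXR bile acid balance, and PXR and CAR the detoxifying enzymes. H3K9me3, trimethylation of lysine 9 on histone H3, marks heterochromatin and silenced repeats, and active promoters usually lack it.

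Of the 8 receptor bins that passed a threshold in the authors' deposited tables, the 4 that passed with age and the Ppara start-site bin that passed with MO are shown first, because their base composition differs in ways that recur below. Each line gives the middle 300 bases of the bin, read on the plus strand of GRCm38 (mm10), with CpG dinucleotides in capitals. The 3 Rxra bins below passed the FDR of 0.05 in control females with age. They hold 7, 1 and 9 CpGs in these windows, and lie upstream at -7.9 kb from the main start site (chr2:27668125-27668424), within the gene (chr2:27726693-27726992), and downstream of the gene (chr2:27802469-27802768).
Rxra upstream, lost with age: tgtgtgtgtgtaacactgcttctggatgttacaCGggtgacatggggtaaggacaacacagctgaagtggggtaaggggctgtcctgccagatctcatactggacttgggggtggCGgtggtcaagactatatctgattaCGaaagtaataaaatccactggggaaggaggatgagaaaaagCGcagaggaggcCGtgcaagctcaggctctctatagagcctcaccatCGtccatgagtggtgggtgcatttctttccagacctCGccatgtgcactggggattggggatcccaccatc
Rxra within the gene, lost with age: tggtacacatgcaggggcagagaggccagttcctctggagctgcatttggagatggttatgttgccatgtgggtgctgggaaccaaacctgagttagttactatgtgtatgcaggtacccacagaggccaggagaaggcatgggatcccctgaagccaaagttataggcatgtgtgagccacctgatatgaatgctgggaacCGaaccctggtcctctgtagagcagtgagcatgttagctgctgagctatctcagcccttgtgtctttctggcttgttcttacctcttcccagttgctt
Rxra downstream, gained with age: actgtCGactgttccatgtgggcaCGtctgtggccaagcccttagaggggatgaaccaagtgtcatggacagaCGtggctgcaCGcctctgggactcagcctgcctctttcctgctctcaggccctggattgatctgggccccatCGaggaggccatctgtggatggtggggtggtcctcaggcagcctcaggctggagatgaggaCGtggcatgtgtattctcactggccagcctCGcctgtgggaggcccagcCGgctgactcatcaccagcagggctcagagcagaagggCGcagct

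For contrast, a RefSeq promoter of Rxra (GRCm38.p6, plus strand, chr2:27676951-27677250, 250 bases before to 50 after the start) lies within a peak in both sexes and holds 55 CpGs. Another RefSeq promoter of Rxra (chr2:27709042-27709341) also lies within a peak in both sexes but holds 1 CpG. The line below shows the window with 55 CpGs.
Rxra RefSeq promoter: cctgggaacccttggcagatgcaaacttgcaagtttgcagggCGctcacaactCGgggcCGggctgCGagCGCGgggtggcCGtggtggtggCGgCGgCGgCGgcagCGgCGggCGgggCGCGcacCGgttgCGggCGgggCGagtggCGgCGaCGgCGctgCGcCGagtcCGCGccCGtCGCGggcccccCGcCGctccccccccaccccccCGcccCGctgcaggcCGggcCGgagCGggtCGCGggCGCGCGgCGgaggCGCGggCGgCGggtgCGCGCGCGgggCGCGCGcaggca

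The next pair are the Nr5a2-assigned bin that passed in control males with age (chr1:137350182-137350481, 18 CpGs) and the Ppara start-site bin that passed the threshold for MO in females at 8 weeks (chr15:85735143-85735442, 27 CpGs).
Nr5a2 far upstream, gained with age: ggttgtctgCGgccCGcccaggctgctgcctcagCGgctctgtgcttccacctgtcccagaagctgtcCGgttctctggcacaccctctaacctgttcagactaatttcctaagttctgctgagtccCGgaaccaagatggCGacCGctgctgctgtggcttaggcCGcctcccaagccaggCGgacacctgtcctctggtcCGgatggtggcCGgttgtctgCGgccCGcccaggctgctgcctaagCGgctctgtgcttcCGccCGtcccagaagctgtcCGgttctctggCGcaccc
Ppara start site, lower with MO: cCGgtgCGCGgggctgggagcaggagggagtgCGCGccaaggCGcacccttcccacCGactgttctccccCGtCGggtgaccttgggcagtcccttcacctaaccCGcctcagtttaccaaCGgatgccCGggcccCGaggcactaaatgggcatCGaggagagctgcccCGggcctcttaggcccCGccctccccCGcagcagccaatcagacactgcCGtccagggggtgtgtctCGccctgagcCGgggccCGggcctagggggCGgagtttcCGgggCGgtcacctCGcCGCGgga

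The Nr5a2-assigned bin shown above was repeated sequence. All of its bases were soft-masked as repeat in GRCm38 (100%), and when its printed window was cut into 6 pieces of 50 bases, 0 of 6 occurred only once in the genome, with between 2 and 420 exact copies per piece over both strands. The same count gave 6 of 6 unique pieces for the Ppara bin, for the 3 Rxra bins above and for 2 of the 3 further bins that passed with MO, and 5 of 6 for the remaining one, a male Rxra bin described below, whose other piece had 5 copies. Among female receptor bins 1 of 76, and among male ones 4 of 95, were soft-masked over at least 80% of their bases (1.32% and 4.21%), beside 12.6% and 11.0% of all bins. How reads with several matches were placed is not given in the sources used here, so the values at the Nr5a2 bin may include reads from other copies, which was not tested.

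The half-site of this receptor family, AGGTCA or its reverse complement TGACCT, was searched as those exact letters on both strands. The Ppara start-site bin held 1 (TGACCT on the plus strand, chr15:85735220-85735225), and the other 7 bins that passed a threshold held 0. Of all bins of full length in the age tables, 27.9% (females) and 29.0% (males) held the letters, beside 13 of 51 and 19 of 60 receptor bins. In the MO tables these were 19 of 62 and 19 of 67 receptor bins at 3 weeks (all bins 28.8% and 29.5%), and 21 of 43 (48.8%) in females and 16 of 44 (36.4%) in males at 8 weeks (27.3% of all bins in each). Among RefSeq promoter windows of the same length as the Rxra promoter above, 16.3% of 32851 and 5 of 15 receptor windows held them. The Rxra window with 55 CpGs held 0, and the Rxra window with 1 CpG held 2.

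Coverage of the receptor genes by H3K9me3 peaks ranged from most of the gene to almost none. Peaks of the female and male sets covered 79.2% and 83.6% of Rxra and 75.1% and 83.8% of Ppard, placing both at or above percentile 89.3 of protein-coding genes, whose median coverage was 8.90% and 9.37%. Nr0b2 was covered over 38.3% and 42.6%, Nr1i3 over 36.8% and 15.9%, Nr1h3 over 22.3% and 21.8%, Nr1i2 over 11.9% and 10.9% and Ppara over 6.88% and 16.9%. At the other end Nr5a2 was covered over 4.08% and 4.48%, Pparg over 1.53% and 1.76%, and Nr1h4, the FXR gene, over 0% and 0.321%. Thus peaks covered most of the genes of the obligate partner and of PPARδ, and almost none of the FXR gene. The peak sets merge both ages and diets within a sex, so these shares need not hold in any single group. The outermost annotated start base lay in a peak of both sexes for Ppara, Pparg, Rxra and Nr0b2 and of males for Nr1h3. At that base 48.1% (females) and 49.1% (males) of protein-coding genes had a peak. Other windows can differ, since a RefSeq promoter of Nr5a2 (chr1:136953581-136953880) had a peak in both sexes and that of Ppard in females.

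**Figure D1:**
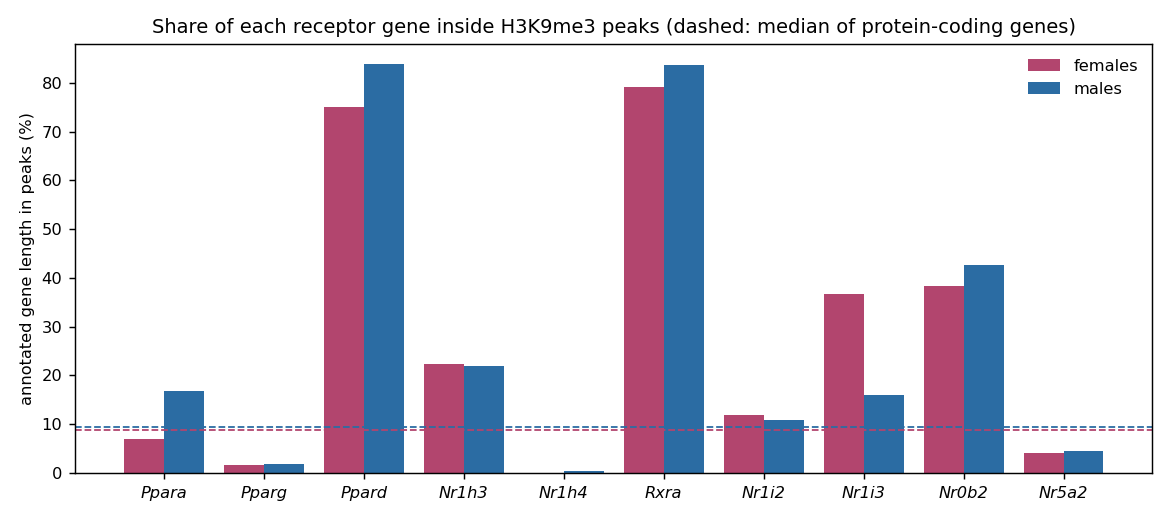
Share of each annotated receptor gene that lies in H3K9me3 peaks (vertical axis, percent of gene length) for the female and male peak sets, with the median of protein-coding genes dashed. Rxra and Ppard stand at 75.1% to 83.8%, and Pparg and Nr1h4 stay under 2%.

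The strength of the mark at the receptors was ordinary for a peak. Median average signal over full-length bins of the age tables was 5.99 CPM at the receptors and 6.22 CPM genome-wide for females, against 4.16 and 4.30 CPM for males. The highest receptor signal in females was 9.50 CPM in an Nr5a2-assigned bin far upstream of the gene (chr1:137323643-137324116), followed by exon 4 of Ppara with 9.33 CPM (chr15:85786835-85787335). In males the repeated Nr5a2 bin led with 7.45 CPM, followed by another Nr5a2-assigned bin (chr1:137323521-137323962) with 6.67 CPM and exon 4 of Ppara (chr15:85787018-85787518) with 5.75 CPM. The strongest Rxra bins had 7.62 CPM in females (chr2:27740286, at an internal start site) and 5.55 CPM in males (chr2:27602509, far upstream). Ppard had its strongest female bin inside the neighbouring gene Def6 (7.24 CPM, chr17:28227631) and its strongest male bin at its own start (5.50 CPM, chr17:28232878). For Pparg these were the 3′ UTR in females (6.76 CPM) and the start site in males (4.16 CPM). Nr0b2 reached 6.79 and 5.14 CPM and Nr1i2 6.56 and 4.27 CPM, the latter inside the neighbouring gene Maats1 in both sexes. Nr1h3 reached 4.99 and 5.54 CPM, Nr1h4 5.92 and 3.60 CPM, and Nr1i3 5.43 CPM in females, with no bin in the male age table. Levels were set on each table's own scale and are not compared between the sexes.

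The first question was whether the mark at the receptors changed between weaning and sexual maturity. In control females 3 receptor bins passed an FDR of 0.05, all assigned to Rxra (2 fell and 1 rose at 8 weeks). That is 3 of 76 (3.95%), beside 2.72% of all bins tested. In control males 1 of 95 receptor bins (1.05%) passed, beside 4.41% of all bins, and it was the repeated Nr5a2 bin, which rose. No bin of Ppara, Pparg, Ppard, Nr1h3, Nr1h4, Nr1i2, Nr1i3 or Nr0b2 passed in either sex. At an unadjusted p under 0.05, 16 female bins (21.1%, all bins 17.5%) and 27 male bins (28.4%, all bins 21.8%) were counted in the authors' deposited tables. Liver tissue mixes cell types, so a change in the mark per cell and a change in the share of cells that carry it cannot be told apart. Per the study's methods the 3-week mice were taken before weaning and the 8-week mice were additional cohorts on chow. Age therefore cannot be told apart from the offspring's own diet or from cohort.

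**Figure D2:**
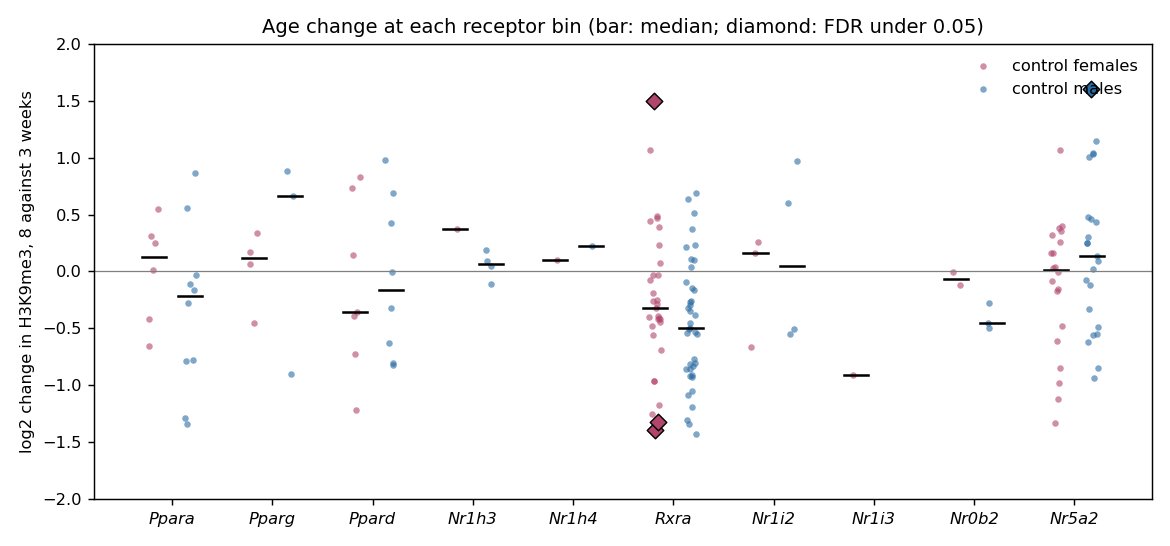
Log2 change in H3K9me3 at 8 against 3 weeks (vertical axis) for every receptor bin in control females and control males, by receptor, with medians as bars and bins under an FDR of 0.05 as diamonds. Most Rxra bins lie below 0 in both sexes (23 of 31 and 30 of 39), beside 52.2% of all bin values.

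The median log2 change over receptor bins was -0.10 in females and -0.27 in males, beside -0.03 and -0.05 over all bins. Rxra supplied 31 and 39 of these bins, and without it the medians were 0.03 and -0.02. When each gene counted once, the median of the genes' medians was 0.06 and 0.05. The lower medians thus rest on the Rxra bins.

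Rxra encodes RXRα, the partner of nearly every receptor described here, on chromosome 2 (27676440 to 27762957, plus strand). With age 23 of 31 female bins were lower, with a median log2 change of -0.32 (range -1.40 to 1.50), and 30 of 39 male bins were lower, with a median of -0.50 (range -1.43 to 0.69). Over all bins 62671 of 120683 were lower in females and 77601 of 148133 in males. Ranked by median from the lowest, Rxra stood 53 of 1023 genes with at least 20 bins in females and 35 of 1557 in males, which is a description and not a test. The lower values were not limited to the gene. Upstream, 9 of 9 female and 12 of 15 male bins were lower (medians -0.40 and -0.33), within the gene 9 of 15 and 12 of 17 (medians -0.25 and -0.53), and downstream 5 of 7 and 6 of 7 (medians -0.39 and -0.77).

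The largest female loss at Rxra was the upstream bin at -7.9 kb (chr2:27668025-27668525), where the group level implied by the table fell from 8.50 to 3.23 CPM (log2 change -1.40, 95% interval -2.17 to -0.62, FDR 0.0275). The bin within the gene (chr2:27726593-27727093, 1.4 kb past an internal start) fell from 8.04 to 3.22 CPM (log2 change -1.32, interval -2.10 to -0.54, FDR 0.0441). Against these, the bin downstream of the gene (chr2:27802369-27802869) rose from 3.08 to 8.72 CPM (log2 change 1.50, interval 0.74 to 2.25, FDR 0.0110). These bins come from peaks of 761, 509 and 5239 bp. In males no Rxra bin passed, and the smallest p-values lay at an internal start (chr2:27719898, log2 change -1.34, FDR 0.0577) and upstream (chr2:27642908, log2 change -1.43, FDR 0.0635).

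The change depends on base composition and signal across the whole genome, and the Rxra bins were read against that trend. After the median change of bins of like GC content and like signal was taken off, the 3 female bins kept their direction (log2 1.33, -1.14 and -1.03) with adjusted p-values of 0.0549, 0.132 and 0.191, so none passed. The Rxra medians became -0.20 in females and -0.30 in males. Peak length also moved with the result. Among bins from peaks over 2500 bp, 23.3% of all bins in females and 36.1% in males had p under 0.05, beside 15.6% and 17.4% of bins from peaks of a single bin. Rxra had 13 bins from such long peaks in each sex, of which 3 and 8 had p under 0.05. The tables retain 1 bin per peak, how it was chosen is not stated, and its part in the Rxra values was not tested.

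**Figure D3:**
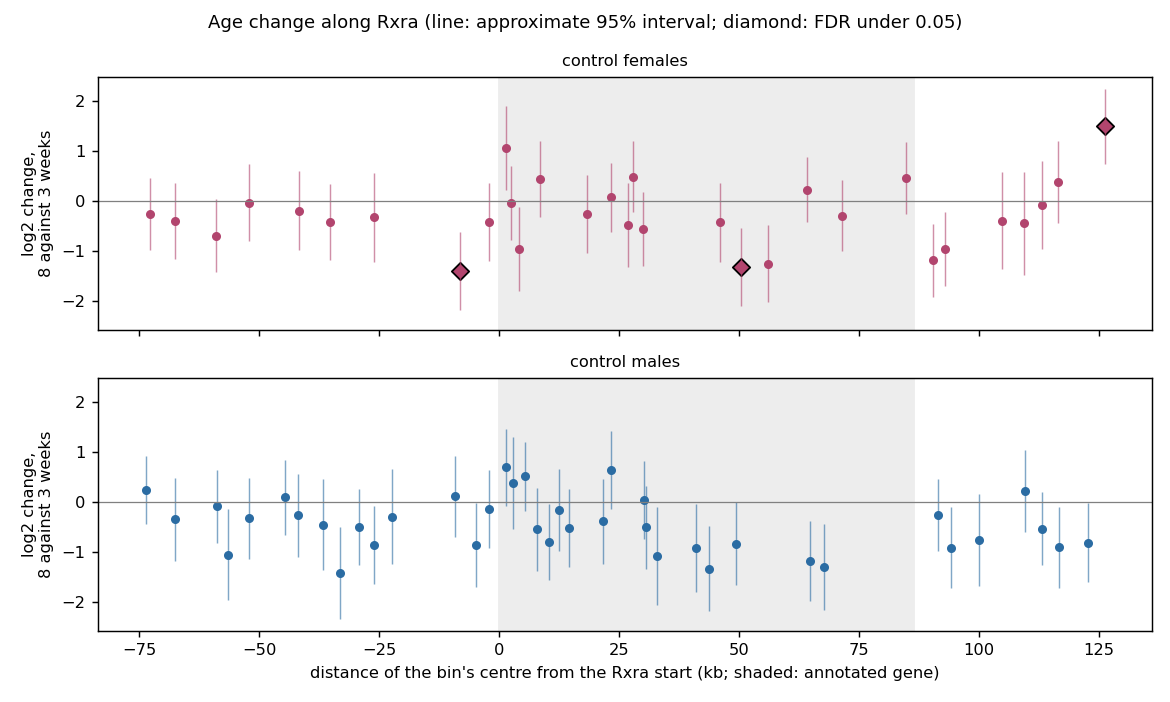
Log2 change at 8 against 3 weeks (vertical axis) along Rxra, by distance of each bin's centre from the gene's start in kb, for control females (top) and control males (bottom). Lines are approximate 95% intervals, diamonds have an FDR under 0.05, and the gene is shaded. The bins at the main start lie above 0 (1.07 and 0.69) and most others below.

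At the main start site of Rxra the values were above 0 in both sexes, where most bins of the locus were lower. The bin was higher at 8 weeks in females (chr2:27677696, implied 3.21 CPM at 3 weeks and 6.75 at 8 weeks, log2 change 1.07, interval 0.23 to 1.91, p = 0.0121 by edgeR's exact test, FDR 0.186) and in males (chr2:27677702, implied 3.49 and 5.62 CPM, log2 change 0.69, interval -0.08 to 1.46, FDR 0.413). Neither passed the FDR. Internal start sites had lower values in males, with log2 changes of -1.08, -1.34, -0.83 and -1.19, while the 2 female ones had -0.42 and 0.23. The main start-site bins hold 37 CpGs in each sex, and the 4 male internal ones 4 or 5.

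The other start sites gave no bin under an FDR of 0.05. The Ppara start had log2 changes of 0.31 for females (FDR 0.786) and 0.87 for males (FDR 0.306). Pparg, the adipogenic PPAR, had 0.34 (FDR 0.821) and 0.88 (FDR 0.238). Nr1h3 start-site bins had 0.37 in females and 0.09, -0.11, 0.19 and 0.04 in males. Nr0b2 had -0.12 and -0.46, Nr5a2 0.03 and -0.09 in females and -0.49 and 0.30 in males, and Ppard 0.00 in males. Bins between 1 and 3 kb from a start ranged from -1.32 (the Rxra bin above) to 0.38 at Nr5a2 in females, and from -0.81 at Ppard to 0.46 at Nr5a2 in males. Over the genome 59.2% of female and 63.7% of male bins within 1 kb of a start were higher at 8 weeks, and 77.8% and 85.3% of bins in the top decile of GC content. The Ppara, Pparg and Rxra start sites are GC-rich, and with the trend taken off their log2 changes were -0.02, 0.01 and 0.64 in females and 0.42, 0.38 and 0.16 in males.

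Nr5a2 had 20 female and 23 male bins, of which only 5 and 3 lay within the gene (chromosome 1, minus strand). The bin that passed in males (chr1:137350082-137350582) lies at -389.6 kb from the gene's start, upstream. There the implied level rose from 3.69 CPM at 3 weeks to 11.2 at 8 weeks (3.04-fold, log2 change 1.6, interval 1.00 to 2.21, FDR 0.000117). It kept an adjusted p of 0.0374 after the trend with GC content and signal was taken off (log2 change 1.08). The overlapping female bin (chr1:137350223-137350641) went from 4.96 to 10.4 CPM (log2 change 1.07, interval 0.41 to 1.73, FDR 0.0610). The copies counted above are those of the male bin's window. Upstream of the gene, with this bin included, 13 of 18 male bins and 9 of 15 female bins were higher, with medians of 0.25 and 0.16. Over all bins 47.6% (males) and 48.1% (females) were higher. Within the gene the female bins with the smallest p-values were lower, at log2 -1.33 (chr1:136886896, FDR 0.10) and -1.12 (chr1:136892914, FDR 0.104), both in introns.

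The remaining receptors had few bins. Ppara bins with the smallest p-values were lower upstream in males (chr15:85728406, log2 change -1.34, FDR 0.0791) and in an intron in females (chr15:85754823, log2 change -0.66, FDR 0.580). For Ppard these were an intron bin in females (chr17:28241255, log2 change -1.22, FDR 0.159) and a bin inside Def6 in males (chr17:28226151, log2 change 0.98, FDR 0.245). Nr1i3 had a single female bin, which also lies inside Tomm40l (chr1:171216570, log2 change -0.91, FDR 0.278). Nr1i2 had its smallest male p inside Maats1 (chr16:38306711, log2 change 0.97, FDR 0.165), and its female bin with the smallest p also lay in Maats1 (chr16:38305599, log2 change -0.66, FDR 0.584). Pparg had -0.45 in females (chr6:115321635, FDR 0.686), and in males the start-site bin given above. Nr0b2 was lower in 5 of 5 bins over both sexes, beside 52.2% of all bin values, with log2 changes between -0.50 and -0.0031. Nr1h4 had a single bin in each sex, with log2 changes of 0.10 and 0.23.

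Female and male changes were compared at bins that overlap by at least 50% of each. Of 32 shared receptor bins, 23 had the same sign in both sexes (71.9%), beside 64.7% of 54633 shared bins over all genes. The difference between the sexes, tested with approximate standard errors and adjusted over all shared bins, passed at 0 receptor bins and at 0 of all bins (0%), with 2 receptor bins and 3768 bins in all at an unadjusted p under 0.05. The smallest adjusted p among the receptors was 0.655, at a bin downstream of Rxra (log2 change 0.39 in females and -0.91 in males, difference 1.30, interval 0.15 to 2.45). The intervals of the differences had a median half-width of 1.08 on the log2 scale.

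The second question was whether MO left a change at the receptors. No bin of any gene passed an FDR of 0.05 in a diet comparison, so the study's threshold of an unadjusted p under 0.001 was used and each call is given with its FDR. At 3 weeks 1 of 91 receptor bins passed in females (1.10%, all bins 0.211%) and 2 of 107 in males (1.87%, all bins 0.278%). At 8 weeks 1 of 67 passed in females (1.49%, all bins 0.162%) and 0 of 61 in males (all bins 0.114%). At an unadjusted p under 0.05 by edgeR's exact test there were 7 receptor bins (7.69%, all bins 7.72%) and 15 (14.0%, all bins 8.83%) at 3 weeks in females and males, and 4 (5.97%, all bins 7.00%) and 0 (all bins 6.50%) at 8 weeks. With 1 or 2 bins, these shares are too coarse to be read against the background. Median log2 changes over the receptors were -0.09, -0.06, -0.04 and -0.05 in the same order, beside -0.01, 0.03, 0.01 and 0.00 over all bins.

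**Figure D4:**
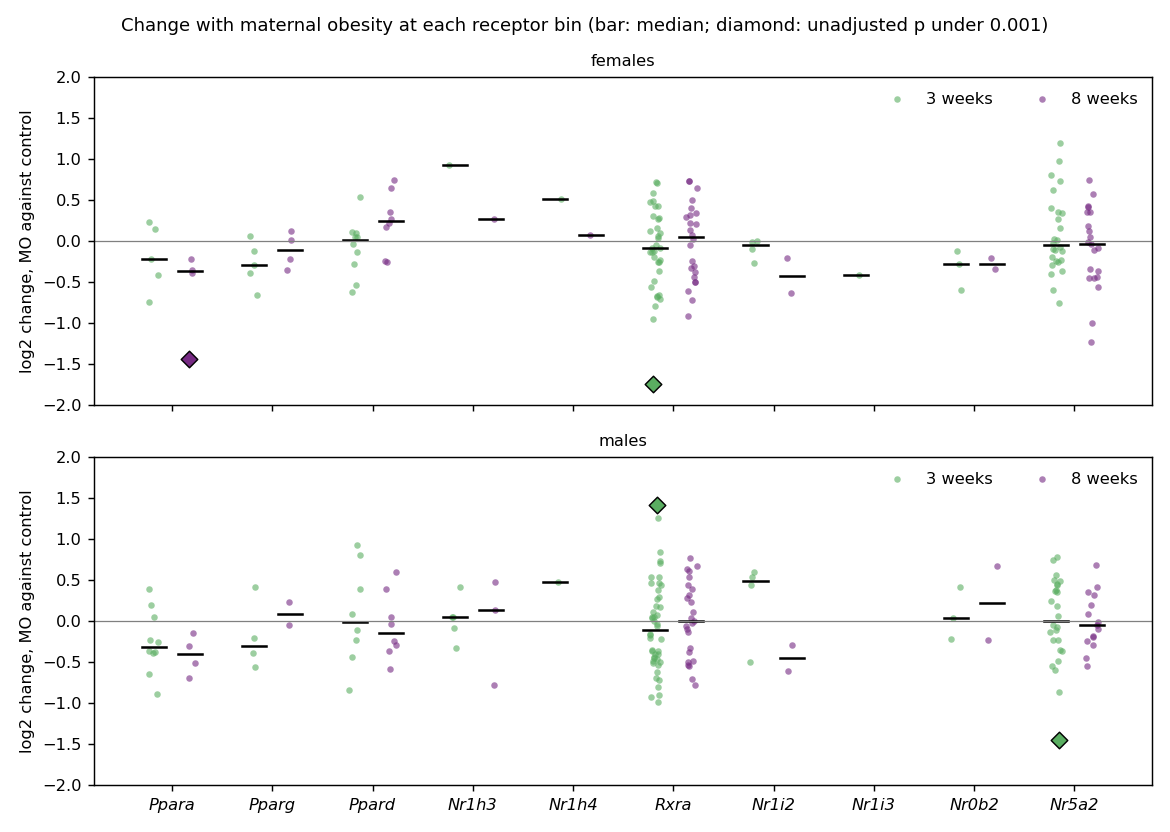
Log2 change in H3K9me3 with MO against control (vertical axis) for every receptor bin, by receptor, in females and males at 3 and at 8 weeks, with medians as bars and bins under an unadjusted p of 0.001 as diamonds. Ppara medians lie below 0 in all 4 comparisons (-0.22, -0.31, -0.37 and -0.41).

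Rxra had a call in each sex at 3 weeks, at different places and in opposite directions. In females a bin of intron 1 (chr2:27682705-27683205, 5.4 kb past the start) stood at 6.94 CPM in controls and 2.07 with MO (log2 change -1.75, interval -2.57 to -0.92, p = 3.16e-05 by edgeR's exact test, FDR 0.526). In males a bin 51.2 kb past the nearest start (chr2:27791444-27791787) stood at 1.92 CPM in controls and 5.10 with MO (log2 change 1.41, interval 0.63 to 2.20, FDR 0.519), and 42.4% of its bases were soft-masked as repeat. Over all Rxra bins there was no common direction, with 20 of 35 and 25 of 46 lower at 3 weeks and 11 of 24 and 12 of 25 lower at 8 weeks. The 3 bins that passed with age in females had log2 changes with MO of -0.68 (3 weeks, upstream), -0.66 (3 weeks, within the gene) and -0.25 (8 weeks, downstream), none under p 0.05. Each pair of values shares a control group through which the bin had been picked, and they stand side by side only.

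Nr5a2 had a call in males at 3 weeks, at -17.0 kb from the start (chr1:136977485-136977985), with 5.25 CPM in controls and 1.92 with MO (log2 change -1.46, interval -2.28 to -0.63, FDR 0.524). The same bin had a log2 change of -0.94 with age in control males (FDR 0.246). These share the 3-week control libraries, so their values stand side by side only. At the repeated Nr5a2 bin the implied female levels were 4.96 CPM in 3-week controls, 9.78 with MO at 3 weeks, 10.4 in 8-week controls and 7.61 with MO at 8 weeks. The log2 change with MO was 0.98 at 3 weeks (interval 0.31 to 1.64, p = 0.00386 by edgeR's exact test, FDR 0.789) and -0.44 at 8 weeks. The age change and the 3-week MO change share the 3-week controls here too, and the bin was picked for its rise with age, so a low value in those controls would raise both. In males the 4 levels were 3.69, 5.15, 11.2 and 9.83 CPM.

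Ppara, the fatty acid sensor, had its call at the start site in females at 8 weeks (chr15:85735043-85735543, within 1 kb of the annotated start, GC content 72.1%). There the level was 8.21 CPM in controls and 3.04 with MO, 2.70-fold lower (log2 change -1.43, interval -2.24 to -0.63, p = 0.000513 by edgeR's exact test, FDR 0.807). At 3 weeks the log2 change of this bin was -0.41 (interval -1.30 to 0.47). The retained male bin next to it (chr15:85735609-85736109) had -0.38 at 3 weeks and -0.30 at 8 weeks. Over the genome of 8-week females 34.7% of bins in the top decile of GC content were higher with MO (median log2 change -0.20), and with the trend taken off the Ppara bin had a log2 change of -1.14 and missed the threshold. Receptor bins within 1 kb of a start were higher with MO in 3 of 9 (females) and 6 of 14 (males) at 3 weeks and in 2 of 10 and 5 of 12 at 8 weeks, beside 42.3%, 45.6%, 39.4% and 46.4% of all such bins.

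Ppara bins were mostly lower with MO in both sexes, a pattern picked out after its values were seen. They were lower in 18 of 23 values over the 4 diet comparisons, beside 49.3% of all bin values: 3 of 5 and 4 of 4 in females and 7 of 10 and 4 of 4 in males at 3 and 8 weeks. The bin over exon 4 had the highest signal of the Ppara bins in both age tables. In females it had 9.29 CPM in 3-week controls, 5.73 with MO at 3 weeks, 9.37 in 8-week controls and 7.22 with MO at 8 weeks, with log2 changes with MO of -0.74 (interval -1.40 to -0.08) and -0.39 (interval -1.05 to 0.28). In males the levels were 5.81, 3.31, 5.68 and 4.03 CPM, with log2 changes of -0.89 (interval -1.61 to -0.17) and -0.51 (interval -1.32 to 0.29). Control levels hardly moved with age at this bin (log2 0.01 and -0.03), and both MO groups stood below the controls at each age. None of these passed p 0.001, and the same libraries enter every bin of a comparison, so the bins are not independent.

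**Figure D5:**
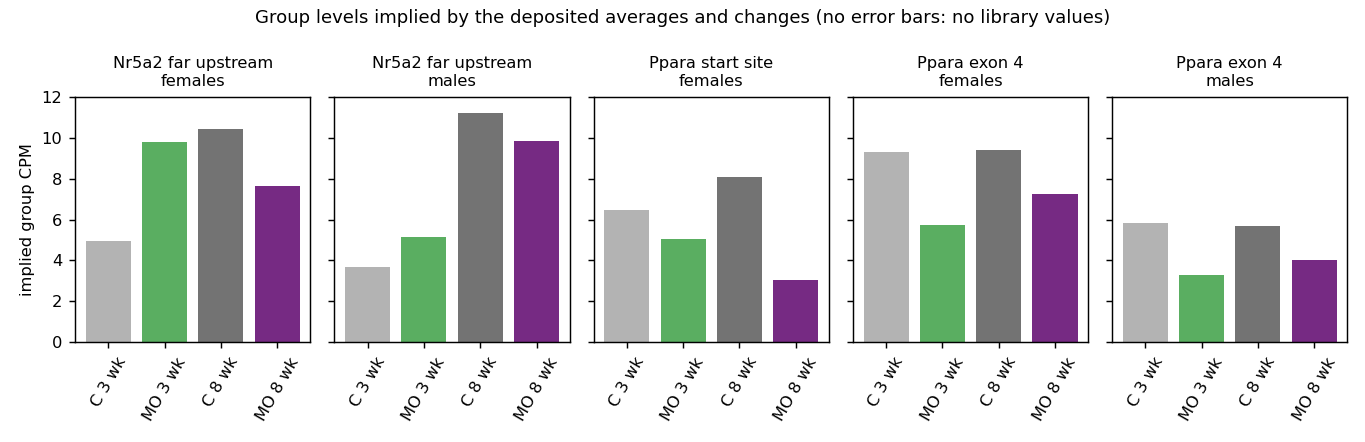
Group levels in CPM (vertical axis, bars from 0) implied by the authors' averages and changes at the repeated Nr5a2 bin, the Ppara start site and Ppara exon 4, for control (C) and MO at 3 and 8 weeks. Control bars come from the age tables, and MO bars from the MO tables, rescaled by the median offset of the same sex and age's control group between the tables, so levels differ from those given from the MO tables alone. There are no error bars because the tables hold no library values. At exon 4 both MO bars stand below their controls in each sex.

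No bin of Pparg, Ppard, Nr1h3, Nr1h4, Nr1i2, Nr1i3 or Nr0b2 passed with MO. Nr1h3, the LXRα gene, had a start-site value of 0.93 in females at 3 weeks (chr2:91190382, interval 0.18 to 1.67, FDR 0.850) and 0.27 at 8 weeks, while its male start-site bins ranged from -0.79 to 0.47. Pparg start-site bins had -0.65 and -0.35 in females and -0.56 and 0.23 in males at 3 and 8 weeks. At the main Rxra start, where the tables list different bins, the female values were -0.08 at 3 weeks and -0.72 at 8 weeks, and the male ones 0.73 and -0.55, none with p under 0.05. Female start-site bins of Nr5a2 had 0.27 and -0.25 (3 weeks) and -0.99 and -0.04 (8 weeks), and the male ones -0.87 (3 weeks) and 0.41 and -0.10 (8 weeks). Ppard had 3 of 8 male bins under p 0.05 at 3 weeks with mixed signs (0.81, 0.93 and -0.84), beside 8.83% of all bins. Nr1h4 was higher in 3 of 3 values (0.48, 0.51 and 0.07), Nr0b2 lower in 7 of 10, Nr1i2 lower in 8 of 12, and Nr1i3 had a single value of -0.41. Of all bin values with MO 49.3% were lower.

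Whether the change with MO differed between 3 and 8 weeks was tested at bins shared by both ages, within each sex. Among 40 shared female bins 20 had the same sign, and among 36 male bins 20 did. The difference passed at 0 receptor bins in either sex (all bins 0% in both), with 4 receptor bins in each sex at an unadjusted p under 0.05, beside 4233 of 76657 and 4101 of 69096 shared bins over all genes. The smallest adjusted p was 0.708 in females, at the repeated Nr5a2 bin (difference 1.41, interval 0.51 to 2.32), and 0.781 in males, at the farthest Nr5a2-assigned bin (chr1:137461098, log2 change 0.75 at 3 weeks and -0.55 at 8 weeks). At the Ppara start site of females the difference was 1.02 (interval -0.18 to 2.22), and at exon 4 it was -0.36 in females and -0.38 in males. With median half-widths of 1.08 and 1.10, a change at 1 age and not at the other was not shown for any receptor.

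The wider pathway was read from 7 lists of 89 genes. With age, 10 of 426 bins passed in females (2.35%, 4 higher and 6 lower) and 25 of 513 in males (4.87%, 16 higher and 9 lower), near the shares over all bins given above. Their median log2 changes were -0.11 and -0.03. With MO the counts were 1 of 501 female and 2 of 567 male bins for the younger age and 1 of 387 and 2 of 369 for the older one, beside 0.211%, 0.278%, 0.162% and 0.114% of all bins. With the trend in GC content and signal taken off, 4 of the 10 female and 8 of the 25 male calls with age stayed under an adjusted p of 0.05. They were assigned to Cyp3a25, Fasn, Mylip and Ppargc1a in females, and to Abca1, Cyp2b13, Mylip (2 bins), Nr1h2, Nr3c1, Pdk4 and Vdr in males.

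Each list's share is read beside 2.72% of all female and 4.41% of all male bins. Among coregulators 3 of 88 female (3.41%) and 0 of 90 male bins passed with age. Ep300, a histone acetyltransferase, fell upstream (log2 change -1.49), Ncoa2, a coactivator, fell within the gene (-1.26), and a bin assigned to Ppargc1a, the coactivator of PPARα in fasting, rose far downstream (1.24). Among related nuclear receptors 2 of 101 female (1.98%) and 6 of 139 male bins (4.32%) passed. Nr1h2, the LXRβ gene, rose at its start site in males (chr7:44551963-44552463, log2 change 1.50, interval 0.95 to 2.05, FDR 5.56e-05, 11.8 CPM). Vdr, the vitamin D receptor, rose in intron 1 (1.49), and Rora fell in an intron (-1.40). Bins assigned to Nr2f1 rose in both sexes (1.11 and 1.35) and lie within Fam172a, and in females Rarb fell upstream (-1.51). Further male bins were assigned to Nr3c1, the glucocorticoid receptor gene (-1.56), and Nr1d2 (1.12), with a call for Nr1d2 with MO at 3 weeks (1.17, FDR 0.519).

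Targets of the lipid sensors had calls at single bins. Of PPARα targets, 0 of 51 female and 1 of 60 male bins (1.67%) passed, where Pdk4, which spares glucose in fasting, fell downstream of its start (log2 change -2.09, FDR 0.000665). Calls with MO included Cpt1a, the entry step of mitochondrial fatty acid oxidation, in intron 1 in females at 3 weeks (1.45, FDR 0.526) and Pdk4 in males at 8 weeks (1.59, FDR 1). Of PPARγ targets, 0 of 16 and 0 of 22 passed. Of LXR targets, 3 of 80 (3.75%) and 6 of 92 (6.52%) passed, among them Fasn, the fatty acid synthase gene, which rose within the gene in females (1.57), and Mylip, which degrades the LDL receptor, with bins that rose in females (1.29) and in males (1.88, 1.30 and 0.92), all of them upstream. In males Abca1 rose in exon 34 (1.26), and Scd1 (-1.63) and Lpcat3 (-1.55) fell, while Abcg1 fell in females (-1.48).

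For bile acid genes 0 of 27 female and 3 of 35 male bins (8.57%) passed. Cyp8b1, the sterol 12α-hydroxylase, fell at its start (log2 change -1.64), and Fgfr4, the FGF15 receptor, rose at its start (1.28) and fell downstream (-1.61). With the trend taken off none of these 3 passed (adjusted p from 0.283 to 0.319). For PXR and CAR targets 2 of 63 female (3.17%) and 9 of 75 male bins (12%) passed, of which 1 in each sex stayed with the trend taken off. In males 5 were assigned to Cyp2b13, of which 4 rose (1.77, 1.55, 1.02 and 1.01) and 1 fell (-1.37), with further gains assigned to Cyp2b9 (1.02), Cyp3a11 (0.98) and Abcb1a (0.95). Cyp2b13 and Cyp2b9 belong to a cluster of near-identical genes, so reads may be split between copies. Bins assigned to Sult2a1 fell in females (-1.26) and, at a neighbouring bin, in males (-1.71), and Cyp3a25 fell outside the gene in females (-1.99, FDR 0.000676). Whether the sexes differ in these lists was not tested.

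Markers of liver cell types describe the mark on DNA and not a share of cells, and expression of the labelled tissue was not analysed here. Among hepatocyte markers 3 of 8 genes had a bin in the female age table and 5 of 8 in the male one. The bins that passed with age were assigned to Cps1 (hepatocyte, males, 1.01), Vsig4 (Kupffer cell, females, 1.12), Pecam1 (endothelium, females, -1.48) and Krt7 (cholangiocyte, males, -1.71), and no stellate cell marker passed. That is 2 of 107 female (1.87%) and 2 of 129 male marker bins (1.55%), beside 2.72% and 4.41% of all bins, and none of the 4 kept an adjusted p under 0.05 with the trend taken off (from 0.114 to 0.271). No marker bin passed with MO. Median signal over all bins ranged from 4.10 to 6.68 CPM among the 6 tables, each on its own scale, so these medians are not compared. The exact depth of each library was not analysed here.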

How the data were processed

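H3K9me3 ChIP-seq reads had been aligned by the authors to mm10/GRCm38 with BWA (study's methods). Broad peaks came from MACS2, those in most replicates were kept, sets were merged over conditions within each sex, reads per bin were counted with featureCounts and the authors compared groups with edgeR's exact test. The deposited columns are the authors' log2 fold change, log2 CPM averaged over both groups, unadjusted p-value and FDR (an adjusted p-value) per bin, and 1 bin per peak is listed. These are the authors' own comparisons, taken here as the measurements because no library values were analysed. The planned tests on counts were therefore not run, depth per library is unknown, and p-values measure the spread between 4 libraries a group, which the study's methods call biological replicates.

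Age changes were turned so that positive means higher at 8 weeks, and MO changes are positive where MO is higher. Standard errors were approximated as the change over its normal quantile, or for p over 0.5 as the median of the bin's decile of log2 CPM. Differences between comparisons with no shared libraries were tested with them at bins overlapping by at least 50% of each and adjusted by Benjamini-Hochberg over all shared bins. Group CPM was implied from average and change, and all 4 groups of a sex were set on the age table's scale through the shared controls, whose offset between tables had an SD of at most 0.050 log2. The trend with GC content and log2 CPM was the median change per pair of deciles (10 each). Bases, repeats (soft-masked) and CpGs came from GRCm38, promoters from RefSeq (GRCm38.p6, windows for 10 of 10 receptors), and gene spans from GENCODE. The functions were tested on simulated data. Python 3.11.15 with numpy 2.4.6, pandas 2.3.3, scipy 1.17.1 and matplotlib 3.10.9 was used.

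The members, the pathway lists and the marker lists were chosen with earlier results of these data known. Named were all receptor bins past a threshold, all promoter bins (with MO mostly as counts), the strongest bin and the bin of smallest p per receptor with age, and from the lists genes with a bin past a threshold, at most 6 a list. The 4 input libraries were not used. Some results for genes of the pathway lists are not reported here.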

Additional observations from a re-analysis of the deposited data

How the results depend on the processing

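The counts of receptor bins that passed, the adjusted p-values of single bins and the medians with age moved with the settings, except that the count with MO in males at 8 weeks was 0 under each setting run. For age in females the 3 bins became 0 at an FDR under 0.01, 6 at an FDR under 0.1, 6 when adjusted over the bins of the table alone, 1 among promoter and gene body bins, and 0 among single-bin peaks, among bins of above-median signal and after the GC and signal trend was taken off. For age in males the 1 bin became 8 at an FDR under 0.1, 3 when adjusted over the table alone, and 0 among promoter and gene body bins and among single-bin peaks. With MO in females at 3 weeks the 1 bin became 3 at p under 0.01, and 0 at an FDR under 0.05, among single-bin peaks and at above-median signal. In males at 3 weeks the 2 bins became 3 at p under 0.01, 0 at p under 0.0001, at an FDR under 0.05, among promoter and gene body bins and at above-median signal, and 1 among single-bin peaks. In females at 8 weeks the 1 bin became 2 at p under 0.01, and 0 at p under 0.0001, at an FDR under 0.05, among single-bin peaks and at above-median signal. Subsets hold fewer bins, and the cause of the other moves was not tested. For most of these settings the matching share over all bins is not given, so the counts are not read against a background. The median over receptor bins with age, -0.10 in females and -0.27 in males, became -0.031 and -0.164 among promoter and gene body bins, 0.055 and 0.050 with each gene weighed the same, -0.214 and -0.076 among single-bin peaks, 0.029 and -0.016 without Rxra and -0.101 and -0.153 with the trend taken off, so its sign depends on the setting. The counts of 0 for the differences between sexes and between ages were the same under the other overlaps and thresholds run. Removal of the trend and of Rxra from the medians, and of the trend from the MO bins and the pathway lists, were chosen after seeing the data.

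No paired analysis was possible because the tables hold no value per library, and for the same reason leaving out replicates, TMM, DESeq2 and quasi-likelihood tests were not run. No receptor bin had identical coordinates in the female and male age tables. The median approximate standard error of a receptor bin was between 0.383 and 0.425 on the log2 scale among the 6 tables.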

Other observations

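The bin listed for a peak was the same in 2 tables of a sex for between 58.5% and 71.8% of the multi-bin peaks they share. For receptor peaks it was the same for 31 of 51 between the age table and the 3-week MO table of females and for 40 of 65 in males. Between the age table and the 8-week MO table it was the same for 26 of 42 (females) and 24 of 46 (males). Between the MO tables of both ages these were 24 of 42 and 23 of 48. From the listed p-values and FDRs, the authors' adjustment in the female age table ran over at least 154642 bins, where 120683 are listed. A receptor peak can thus have other bins whose values were not analysed here.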
